A study of Mus musculus with 6 samples.

Results

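The imprinted genes Peg10, Peg3, Dlk1, Meg3, Rian, Nnat, Grb10, Plagl1 and H19 of mouse islets were followed across 3 sorted cell populations. They are 9 of the 46959 gene rows in the deposited expression table, found by their symbols, and each symbol has a single row. The genes were selected on RPKM values of these same 6 libraries, since they were proposed as imprinted genes of islets with earlier results of the data known. Their own levels are therefore described without a test. RPKM, the unit throughout, is the number of reads per kilobase of gene and per unit of library depth.

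Islets came from adult mice that were offspring of a cross between the lines Ins1-H2b-mCherry and Ucn3-eGFP, so every library carries both transgenes. The first reporter uses the insulin 1 promoter to mark cells that make insulin, and the second uses the urocortin 3 gene, which is active in mature beta cells. Immature beta cells were sorted as positive for mCherry alone, mature beta cells as positive for both colours, and double negative cells, mainly the other endocrine cells of the islet, as negative for both. Islets pooled from 10 to 12 mice a replicate were kept overnight in medium with 5.5 mM glucose, and each population has 2 libraries. Replicate 1 of each population is labelled male and replicate 2 female, although the design text speaks of females only. Xist, the RNA of the inactive X chromosome, was read at 21.4 to 129.1 RPKM in all 6 libraries. The Y-linked gene Eif2s3y had 1, 0 and 0 reads in the immature, mature and double negative libraries labelled male and 32, 13 and 4 in those labelled female, and Ddx3y had 2, 1 and 0 against 22, 9 and 5, which runs against these labels. Whether the 2 replicates of a population were fully separate pools is not shown by the labels, and p-values then reflect only the spread among these libraries.

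The populations differed in depth and in markers of other cells. Read steps in the table gave 2393841 and 3448926 reads for the immature libraries and 22063880 to 26824380 reads for the other 4. The beta cell markers summed to 72884.8 and 78015.7 RPKM in immature, 246472.9 and 263265.7 in mature and 4710.6 and 7018.7 in double negative cells. Alpha cell markers summed to 29262.6 and 19934.6 RPKM in immature, 700.4 and 906.4 in mature and 178478.1 and 172034.2 in double negative cells, so the immature libraries held alpha cell RNA in an amount between the other populations. The 10 endothelial markers summed to 915.2 and 872.9 RPKM in immature, 4.07 and 3.01 in mature and 209.4 and 221.2 in double negative cells. For the 12 mesenchymal markers the sums were 158.2 and 113.1, 1.37 and 1.26, and 26.0 and 31.9 RPKM in the same order. The 8 immune markers summed to 1366.0 and 1418.6, 19.1 and 19.5, and 36.7 and 39.9 RPKM. Acinar cell markers summed to 8871.1 and 27787.2 RPKM in immature, 177.9 and 123.2 in mature and 257.1 and 2124.3 in double negative cells, which makes immature replicate 2 the highest in exocrine RNA. All 10 endothelial, 12 mesenchymal and 8 immune markers were higher in both immature than in both mature libraries. None of these 3 lists had a marker at 0 throughout. The part of such cells in the differences between populations was not tested. In these bulk libraries, fewer cells of a type and less RNA per cell cannot be told apart.

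Imprinted genes are read mainly from the copy inherited from a single parent, because germline methylation marks at control regions are kept through development. They lie in clusters in which paternally expressed growth promoting genes often neighbour maternally expressed noncoding RNAs, and many are highly expressed in fetal tissue and turned down after birth. In the pancreas, imprinted genes are known for ties to beta cell growth and diabetes: PLAGL1 overdose causes transient neonatal diabetes, GRB10 dampens insulin receptor signalling, and loss of MEG3 in human islets has been linked to type 2 diabetes. Total expression alone was measured here, not the parental copy it came from.

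The 9 genes took several shapes across the populations. Peg10 was highest in double negative cells, intermediate in immature cells and lowest in mature cells, and Grb10 had the same order over a smaller range. Peg3 and Dlk1 were at like levels in immature and double negative cells and lower in mature cells. Meg3 and Rian were highest in immature cells and at like levels in the other populations, while Nnat stepped down from immature through mature to double negative cells. Plagl1 was lowest in immature cells, and H19 was at or near 0 everywhere.

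**Figure D1:**
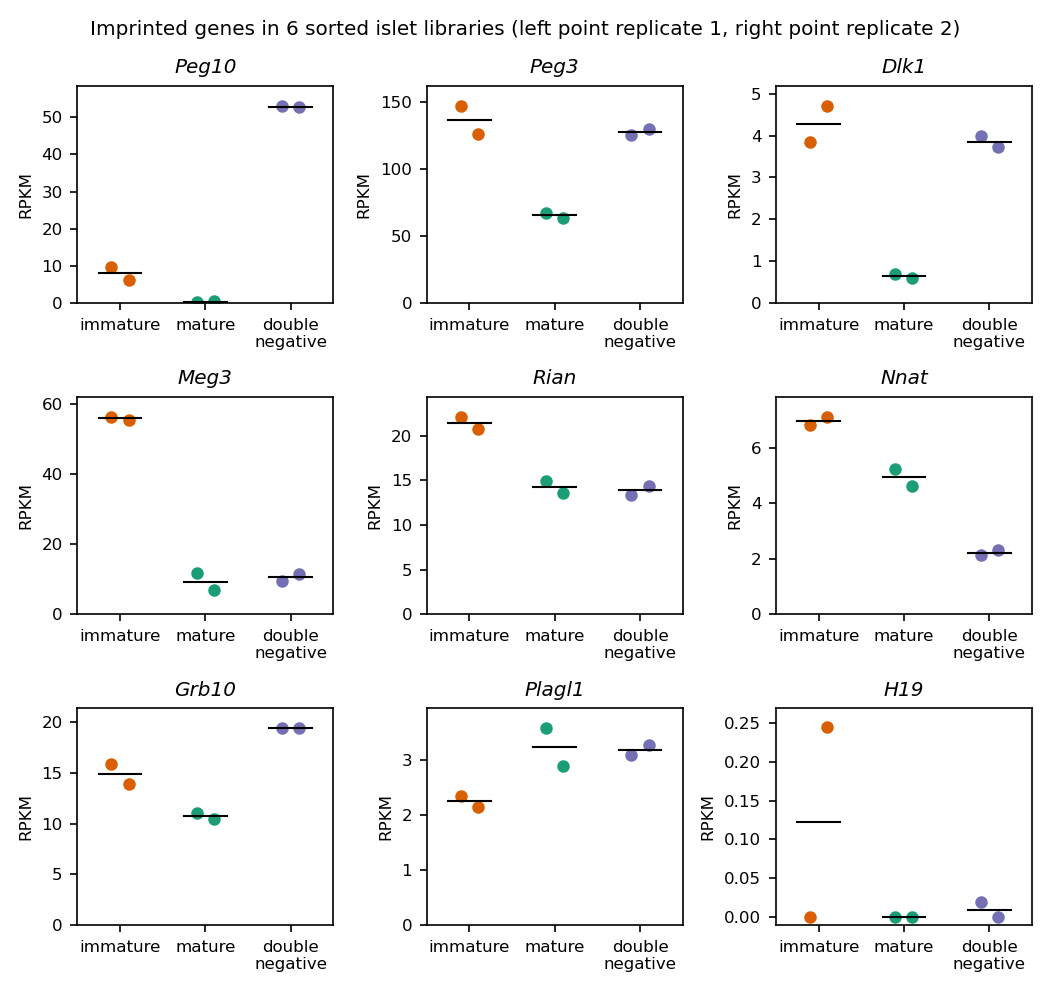
RPKM of each of the 9 imprinted genes in the 6 libraries, with a panel and a linear axis of its own for each gene. Points are single libraries (replicate 1 left, replicate 2 right) and the short lines are the means of the 2 libraries. Peg10 stands near 53 RPKM in double negative cells and below 1 RPKM in mature cells, Peg3 and Dlk1 dip in mature cells alone, and Meg3 peaks in immature cells.

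Dlk1, Meg3 and Rian belong to a single imprinted domain on chromosome 12, in which Dlk1 is read from the paternal copy and Meg3, Rian and Mirg from the maternal copy on the same strand. Their promoter windows are shown because these neighbours took different shapes, and that of Plagl1 because it was the only member lower in immature than in mature cells. The windows run from 250 bases before to 50 after a RefSeq start on GRCm38.p6, written from 5′ to 3′ on the gene's strand. Capitals mark the hexamer TGCCGC on either strand, the letters bound by ZFP57 when methylated, a zinc finger protein that keeps imprints.
Dlk1, chr12:109452573-109452872, plus strand: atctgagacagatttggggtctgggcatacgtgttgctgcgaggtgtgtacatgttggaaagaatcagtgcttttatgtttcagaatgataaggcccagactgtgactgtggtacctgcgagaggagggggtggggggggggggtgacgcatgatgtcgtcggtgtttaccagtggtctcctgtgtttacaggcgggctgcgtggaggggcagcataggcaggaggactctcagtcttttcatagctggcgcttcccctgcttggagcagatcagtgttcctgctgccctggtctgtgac
Meg3, chr12:109540746-109541045, plus strand: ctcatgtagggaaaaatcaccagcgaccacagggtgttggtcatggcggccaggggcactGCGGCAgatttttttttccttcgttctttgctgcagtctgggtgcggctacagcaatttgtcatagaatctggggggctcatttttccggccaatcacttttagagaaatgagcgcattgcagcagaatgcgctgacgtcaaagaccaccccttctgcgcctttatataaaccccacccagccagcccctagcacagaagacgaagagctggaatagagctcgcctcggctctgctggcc
Rian, chr12:109603695-109603994, plus strand: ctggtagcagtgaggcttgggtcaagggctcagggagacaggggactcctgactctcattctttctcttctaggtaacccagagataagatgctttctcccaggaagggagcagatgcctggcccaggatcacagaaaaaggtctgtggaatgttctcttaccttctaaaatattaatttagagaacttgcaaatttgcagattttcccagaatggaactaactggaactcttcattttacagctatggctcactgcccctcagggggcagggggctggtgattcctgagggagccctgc
Plagl1, chr10:13090582-13090881, plus strand: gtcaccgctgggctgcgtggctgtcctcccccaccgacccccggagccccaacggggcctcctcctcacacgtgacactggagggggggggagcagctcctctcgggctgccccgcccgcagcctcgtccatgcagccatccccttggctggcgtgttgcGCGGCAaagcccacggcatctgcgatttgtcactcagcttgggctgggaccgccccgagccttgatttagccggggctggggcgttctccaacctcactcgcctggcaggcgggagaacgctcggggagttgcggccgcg

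RefSeq windows were found for 7 of the 9 members, 9 windows in all, since Meg3 and Grb10 have 2 starts each, and Peg10 and H19 had no entry. The hexamer occurred in 4 of these 9 windows: the first Meg3 window, Nnat, the first Grb10 window and Plagl1. Of all 32851 windows of the same length, 11.6% held it. The letters GCCATNTT, bound by YY1, were searched on both strands and occurred in 0 of the 9 windows and in 6.05% of all windows, so no matches of the 2 motifs overlapped in the members. The count of CpG, the dinucleotide that is methylated, was 9 in the Dlk1 window, 0 in that of Rian, 26 in that of Plagl1, 17 in that of Nnat and 13 in that of Peg3. It was 13 and 1 in the first and second windows of Meg3 and 45 and 9 in those of Grb10, against a median of 7 over all windows. The hexamer itself holds a CpG, and the 4 windows with it all had counts above this median, so the share of 11.6% is not matched for CpG. A match describes letters in a window and is not a binding site.

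Dlk1 (ENSMUSG00000040856.17, chromosome 12, 109452823 to 109463336, plus strand) encodes a membrane protein with EGF repeats, related to Notch ligands and also known as a preadipocyte factor. It was read at 3.84 and 4.71 RPKM in immature, 0.686 and 0.587 RPKM in mature and 3.98 and 3.72 RPKM in double negative cells. Both mature libraries were below all others, and the immature and double negative libraries overlapped. The mature mean was exceeded 6.73-fold in immature and 6.05-fold in double negative cells, with log2 differences of 1.69 between immature and mature and -1.57 between mature and double negative cells (SE 0.11 each). Here and below, log2 differences are of log2(RPKM + 1), which understates the change of low genes, and SE is the standard error from the limma model. The immature values rest on 52 and 92 reads and the mature ones on 92 and 89.

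Meg3 (ENSMUSG00000021268.17, chromosome 12, 109541001 to 109571726, plus strand) is a long noncoding RNA. Its level was 56.4 and 55.6 RPKM in immature, 11.6 and 6.74 RPKM in mature and 9.42 and 11.5 RPKM in double negative cells. The immature libraries stood 6.11-fold above the mature and 5.34-fold above the double negative mean, while mature and double negative libraries overlapped. The log2 difference was 2.53 between immature and mature and 2.32 between immature and double negative cells (SE 0.23 each). Its SE was the largest among the 8 members that were fitted, and the mature replicates differed 1.72-fold. The exons of Meg3 share 8.29% of their bases with exons of other genes, some on the other strand, and whether the counting used strand is not given in the sources used here.

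Rian (ENSMUSG00000097451.10, chromosome 12, 109603940 to 109661716, plus strand), the next noncoding RNA of the domain and a host of small nucleolar RNAs, had the shape of Meg3 at a smaller size. It measured 22.2 and 20.8 RPKM in immature, 15.0 and 13.6 RPKM in mature and 13.4 and 14.4 RPKM in double negative cells. The immature mean was 1.505-fold the mature and 1.547-fold the double negative mean, with log2 differences of 0.56 and 0.59 (SE 0.07 each). After median-ratio rescaling these were 0.14 and 0.29, and after quantile normalization 0.31 and 0.33. The ratio of Meg3 to Rian, both per length, was 2.54 and 2.67 in immature, 0.775 and 0.496 in mature and 0.704 and 0.801 in double negative cells. Meg3 thus exceeded Rian in both immature libraries and was below it in the other 4.

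Further along the same strand, Mirg, the host transcript of a microRNA cluster, stood at 3.61 and 3.10 RPKM in immature, 2.21 and 1.61 in mature and 1.30 and 1.39 in double negative cells. Mirg was higher in immature than in double negative cells by 0.89 on the log2 scale (SE 0.13, limma adjusted p = 0.00245). Against mature cells the difference was 0.59 (SE 0.13, limma adjusted p = 0.00946), and this call was lost without mature replicate 2 (0.44, limma adjusted p = 0.0676) and turned to -0.16 under quantile normalization. Rian exceeded Mirg 6.14-fold and 6.71-fold in immature, 6.76-fold and 8.44-fold in mature and 10.2-fold and 10.3-fold in double negative cells. Rtl1, a retrotransposon-derived gene read from the paternal copy, stayed at 0.263 and 0.274 RPKM in immature cells and between 0.0265 and 0.0761 RPKM in the other libraries, too low to be tested. Its values rest on 4 and 6 reads in immature, 4 and 7 in mature and 7 and 11 in double negative cells. Between the start of Meg3 and the end of Mirg, 208.5 kb, the annotation has 54 microRNA genes, of which 49 are in the table, 34 are listed at 0 in all 6 libraries and 6 passed 1 RPKM in any library. Libraries of this kind do not capture mature microRNAs.

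**Figure D2:**
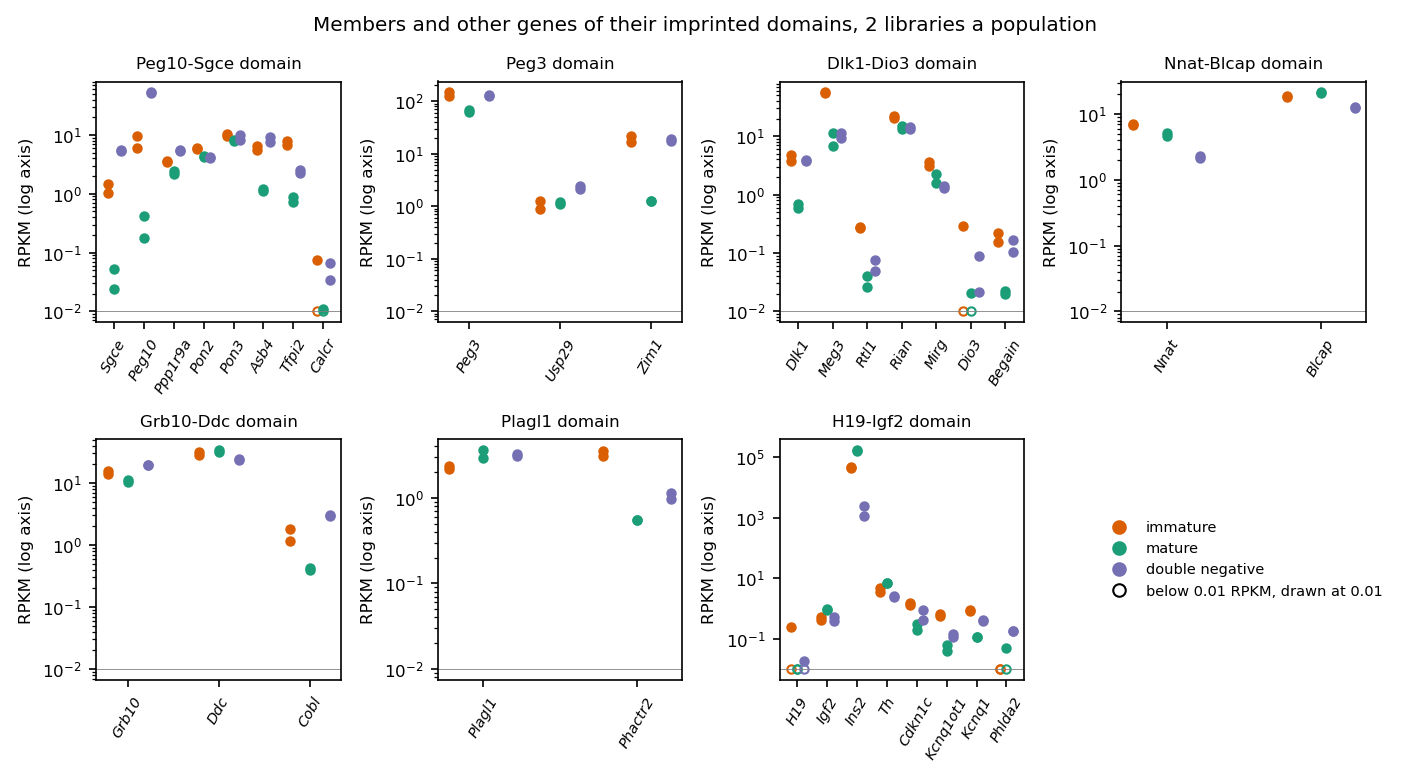
RPKM on a log axis of the members and of other genes in their imprinted domains, with 1 point per library. Open circles are values below 0.01 RPKM, drawn at 0.01. Sgce follows Peg10 from below 0.1 RPKM in mature to above 5 RPKM in double negative cells, and Zim1 dips in mature cells with Peg3 while Usp29 does not.

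Peg10 (ENSMUSG00000092035.8, chromosome 6, 4747306 to 4760517, plus strand) derives from a retrotransposon, encodes Gag-Pol-like proteins and is needed for the placenta. It varied most among the members, with 9.78 and 6.13 RPKM in immature, 0.177 and 0.425 RPKM in mature and 53.1 and 52.7 RPKM in double negative cells. No populations overlapped. The double negative mean was 175.7-fold the mature and 6.65-fold the immature mean, and the immature mean was 26.4-fold the mature mean. Log2 differences were -5.38 for mature against double negative, 2.76 for immature against mature and -2.62 for immature against double negative cells (SE 0.20 each). The mature values rest on 28 and 76 reads and the double negative ones on 7816 and 7980.

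Peg10 lies 98 bases from Sgce, the gene of epsilon sarcoglycan, and both are read from the paternal copy in opposite directions. Sgce was read at 1.496 and 1.038 RPKM in immature, 0.0238 and 0.0527 RPKM in mature and 5.42 and 5.51 RPKM in double negative cells, which is the order of Peg10. Sgce was lower in mature than in double negative cells by a log2 difference of -2.64 (SE 0.12, limma adjusted p = 2.64e-05). Between immature and mature cells the difference was 1.12 (SE 0.12, limma adjusted p = 0.000528), and this call was lost under quantile normalization, where it was 0.18 with a limma adjusted p = 0.279. Peg10 stood 9.68-fold above Sgce, per length, in double negative and 6.28-fold in immature cells. Of the other genes of the domain, Asb4 and Tfpi2 were higher in immature than in mature cells by 1.71 and 2.20 (limma adjusted p = 9.33e-05 and 2.30e-05). Tfpi2, a protease inhibitor, was highest in immature cells, 1.29 above double negative cells on the log2 scale (SE 0.11, limma adjusted p = 0.000281), unlike Peg10. Pon3, an enzyme gene of the same domain, differed by 0.27 between immature and mature cells (limma adjusted p = 0.0679), which passed without double negative replicate 1 or double negative replicate 2 (limma adjusted p = 0.0357 and 0.0367), with the compared libraries alone (0.0371) and with voom (0.46, limma adjusted p = 0.0221).

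Peg10 in immature cells was at 18.5% and 11.6% of the double negative mean, and in mature cells at 0.335% and 0.803%. Glucagon (Gcg), the hormone of alpha cells, was at 16.5% and 11.2% in the same immature libraries and at 0.314% and 0.426% in the mature ones. Ttr, the transthyretin gene, which alpha cells express strongly, was at 20.7% and 14.9% in the immature libraries. Peg10 was within the range of these alpha cell genes in the immature libraries, and like both was higher in replicate 1 than in replicate 2. Sgce was at 27.4% and 19%, and Mest, a paternally expressed hydrolase gene, at 32.6% and 36.9% in the immature libraries. Somatostatin (Sst), the delta cell hormone, was at 15.7% and 17.3%, and Ppy at 32.3% and 40.6%. The part of alpha or other endocrine cells in the immature level of Peg10 was not tested.

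**Figure D3:**
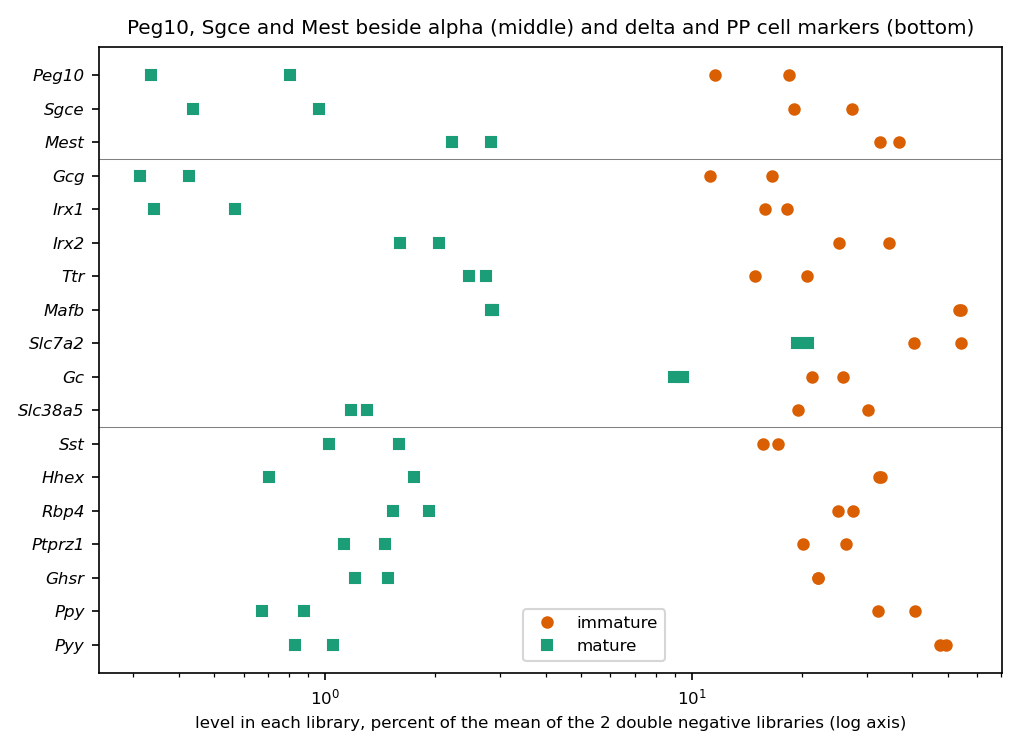
Level of Peg10, Sgce and Mest, of alpha cell markers and of delta and PP cell markers in each immature (circle) and mature (square) library, as percent of the mean of the 2 double negative libraries, on a log axis. Peg10 lies at 11.6% and 18.5% in immature and below 1% in mature cells, beside Gcg.

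Peg3 (ENSMUSG00000002265.16, chromosome 7, 6703892 to 6730431, minus strand) encodes a large zinc finger protein and was the most abundant member in every library. It measured 147.4 and 126.5 RPKM in immature, 67.2 and 63.7 RPKM in mature and 125.5 and 129.9 RPKM in double negative cells. Both mature libraries lay below the other 4, and immature and double negative libraries overlapped. The immature mean was 2.09-fold and the double negative mean 1.95-fold the mature mean, with log2 differences of 1.05 and -0.95 (SE 0.08 each) for immature against mature and mature against double negative cells.

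Next to Peg3, Zim1, a maternally expressed zinc finger gene, had the same order of levels over a wider range. Zim1 was read at 21.5 and 16.5 RPKM in immature, 1.25 and 1.27 RPKM in mature and 17.3 and 18.8 RPKM in double negative cells. It was higher in immature than in mature cells by 3.13 (SE 0.13, limma adjusted p = 1.09e-05) and lower in mature than in double negative cells, at -3.07 (SE 0.13, limma adjusted p = 1.71e-05). Between immature and double negative cells the difference was 0.06 (SE 0.13, limma adjusted p = 0.716), and it became 0.24 without immature replicate 2 (limma adjusted p = 0.0396). Usp29, a paternally expressed gene that starts beside Peg3, had 0.869 and 1.24 RPKM in immature, 1.09 and 1.21 in mature and 2.17 and 2.41 in double negative cells. Its difference between immature and mature cells was -0.07 (SE 0.12, limma adjusted p = 0.642), where Peg3 differed by 1.05, and it became -0.95 with a limma adjusted p = 0.00108 under quantile normalization.

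Nnat (ENSMUSG00000067786.16, chromosome 2, 157560078 to 157562522, plus strand) encodes a small proteolipid of the endoplasmic reticulum and lies inside Blcap, which is read from the opposite strand. Nnat was read at 6.85 and 7.13 RPKM in immature, 5.23 and 4.65 RPKM in mature and 2.13 and 2.31 RPKM in double negative cells. No populations overlapped, and it was the only fitted member with both kinds of mCherry positive cells above double negative cells. The mature mean was 2.23-fold and the immature mean 3.15-fold the double negative mean, with log2 differences of 0.88 and 1.31 (SE 0.09 each). Between immature and mature cells the fold was 1.42 and the log2 difference 0.43 (SE 0.09), which was 0.05 after median-ratio rescaling and -0.07 after quantile normalization. The immature values rest on 30 and 45 reads.

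Blcap, a widely expressed gene, likewise was higher in mature than in double negative cells, by 0.69 on the log2 scale (SE 0.05, limma adjusted p = 0.000180), and in immature than in double negative cells by 0.52 (SE 0.05, limma adjusted p = 0.000630). Between immature and mature cells its difference was -0.17 (SE 0.05, limma adjusted p = 0.0354), opposite in sign to that of Nnat. That call was lost when immature replicate 1, mature replicate 1 or mature replicate 2 was left out (limma adjusted p = 0.0605, 0.144 and 0.205) and when either double negative library was (limma adjusted p = 0.0554 and 0.0557). It was also lost with the replicate block (-0.17, limma adjusted p = 0.0587), without the intensity trend (limma adjusted p = 0.0642), with the compared libraries alone (limma adjusted p = 0.0539) and with limma's voom on recovered reads (-0.0026, adjusted p = 0.983).

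Grb10 (ENSMUSG00000020176.17, chromosome 11, 11930508 to 12038683, minus strand) encodes an adaptor protein that binds the insulin and IGF1 receptors and limits their signalling. It had 15.9 and 13.9 RPKM in immature, 11.1 and 10.5 RPKM in mature and 19.5 and 19.4 RPKM in double negative cells. The populations did not overlap, and the double negative mean was 1.81-fold the mature and 1.31-fold the immature mean. The log2 difference was -0.80 for mature against double negative, 0.43 for immature against mature and -0.37 for immature against double negative cells (SE 0.08 each). That between immature and mature cells was 0.02 after median-ratio rescaling and 0.12 after quantile normalization. Ddc, the dopa decarboxylase gene beside it, ran the other way: it was higher in mature than in double negative cells by 0.42 (SE 0.07, limma adjusted p = 0.00440), a call lost under quantile normalization (0.24, limma adjusted p = 0.0700). Cobl, an actin nucleator gene on the other side, was lower in mature than in double negative cells, at -1.49 (SE 0.14, limma adjusted p = 0.000411).

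Plagl1 (ENSMUSG00000019817.18, chromosome 10, 13060504 to 13131694, plus strand) encodes a zinc finger transcription factor that restrains cell growth. It was the only fitted member that was lower in immature than in mature cells, with 2.35 and 2.15 RPKM in immature, 3.59 and 2.90 RPKM in mature and 3.10 and 3.27 RPKM in double negative cells. Both immature libraries were below the other 4, and mature and double negative libraries overlapped. The mature mean was 1.44-fold and the double negative mean 1.42-fold the immature mean, with log2 differences of -0.38 and -0.37 (SE 0.11 each) for immature against the other populations. The immature values rest on 44 and 58 reads. Phactr2, a phosphatase and actin regulator gene of the same region, went the other way from Plagl1: its immature libraries had 3.503 and 3.076 RPKM against 0.555 and 0.549 RPKM in the mature ones, a log2 difference of 1.46 (SE 0.10, limma adjusted p = 9.89e-05).

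H19 (ENSMUSG00000000031.16, chromosome 7, 142575529 to 142578143, minus strand), a maternally expressed noncoding RNA that is abundant in fetal tissue, was listed at 0 in immature replicate 1, both mature libraries and double negative replicate 2. It stood at 0.244 RPKM in immature replicate 2 and 0.0191 RPKM in double negative replicate 1. Its values were not whole reads at the annotated exonic length, so no floor in reads is given for it. These data therefore do not show H19 as a gene expressed in adult islet cells. Its paternally expressed neighbour Igf2, the gene of insulin-like growth factor 2, was at 0.511 and 0.405 RPKM in immature, 0.972 and 0.892 in mature and 0.539 and 0.392 in double negative cells, below the level tested. Exons of other genes share 64.5% of Igf2's exonic bases, so reads there can be assigned to more than a single gene.

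Across the 13367 genes that reached at least 1 RPKM in at least 2 libraries, 8 of the 9 members were included and H19 was not. The model called 49.8% of these genes higher and 15.5% lower in immature than in mature cells, at a limma adjusted p under 0.05. Calls are not given for the members, whose own values helped to choose them. By level alone, both immature libraries were above both mature ones for 7 of the 8 members and below them for 1, Plagl1. In mature against double negative cells the model called 23.1% of genes higher and 31.2% lower. Both mature libraries were above both double negative ones for 1 member, Nnat, and below them for 4, Peg10, Peg3, Dlk1 and Grb10. In immature against double negative cells the model called 45.9% of genes higher and 10.6% lower. Both immature libraries were above both double negative ones for 3 members, Meg3, Rian and Nnat, and below them for 3, Peg10, Grb10 and Plagl1. Replicates of the 2 populations did not overlap for 8, 5 and 6 of the 8 members in these 3 comparisons, against 82.5%, 84.9% and 76.2% of all tested genes. The shares called higher or lower follow a different rule from the counts by level. Non-overlap over all genes was counted in either direction only, so the counts by direction have no matching share. All these counts describe values that helped to choose the members. The median log2 difference of the 8 members was 0.80, -0.50 and 0.11, and that of all tested genes 0.29, -0.08 and 0.24. The comparisons share libraries in pairs, so they are not independent.

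**Figure D4:**
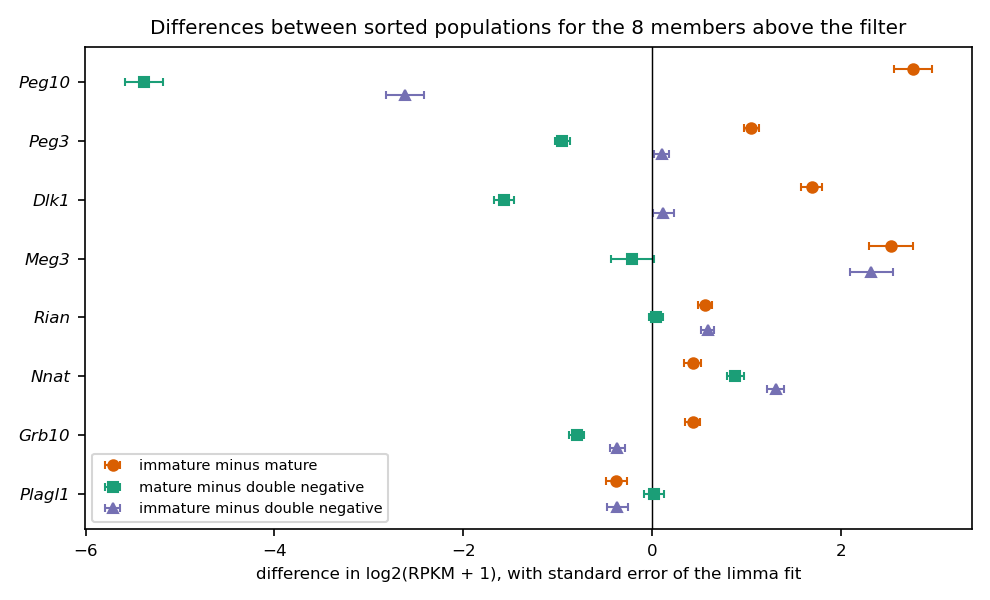
Difference in log2(RPKM + 1) between populations for the 8 members above the filter, with bars for the standard error of the limma model over 6 libraries. Circles are immature minus mature, squares mature minus double negative and triangles immature minus double negative. Peg10 spans from -5.38 to 2.76, while Rian, Grb10 and Plagl1 stay within 1 log2 unit of 0.

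The choice of scaling moves the comparisons with immature cells. The median over all genes of immature against mature went from 0.29 to -0.09 with median-ratio rescaling and to -0.17 with quantile normalization. The share of calls that were higher went from 76.2% to 44.0% and 36.8%. For immature against double negative cells the median went from 0.24 to -0.04 and -0.11 and the share from 81.2% to 48.7% and 39.7%, and for mature against double negative cells from -0.08 to 0.01 and 0.04 and from 42.6% to 52.7% and 52.4%. Peg10, Peg3, Dlk1 and Meg3 were higher in immature than in mature cells under every setting tried, by 1.98 to 4.89, 0.61 to 1.16, 0.88 to 2.95 and 2.11 to 2.88 on the log2 scale. Plagl1 was lower there under every setting, from -1.09 to -0.26.

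A wider list of other imprinted genes was used to see whether the members' shapes were general. It held 63 genes, of which 62 are in the table and 42 were tested. In immature against mature cells 23 of the 42 (54.8%) were higher, 11 (26.2%) lower and 8 not called, with a median of 0.37 against 0.29 over all genes, of which 49.8% were called higher and 15.5% lower. In mature against double negative cells 9 (21.4%) were higher, 18 (42.9%) lower and 15 not called, with a median of -0.14 against -0.08 and with 23.1% and 31.2% of all genes called. In immature against double negative cells 17 (40.5%) were higher, 13 (31.0%) lower and 12 not called, with a median of 0.13 against 0.24 and with 45.9% and 10.6% of all genes called. In each comparison the list held calls in both directions, as did the table as a whole. Quantile normalization gave 12 higher calls in place of 23 between immature and mature cells, and the 11 lower calls became 17 with median-ratio rescaling. Over all 13367 genes, quantile normalization gave 3122 higher calls in place of 6655. With median-ratio rescaling 3930 of 8931 calls over all genes were higher, in place of 6655 of 8728.

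The wider list was also split by the parental copy under which each gene is listed, which was not measured in these cells. Whether each gene is read from that copy alone in islets is therefore not shown. The 16 tested genes listed as paternally expressed had 7 higher (43.8%) and 4 lower (25.0%) in immature than in mature cells, with a median of -0.10. The 26 genes listed as maternally expressed had 16 higher (61.5%) and 7 lower (26.9%), with a median of 0.42. In mature against double negative cells 3 genes listed as paternally expressed were higher and 8 lower. Of those listed as maternally expressed, 6 were higher and 10 lower. In immature against double negative cells the counts were 5 and 8 for genes listed as paternally and 12 and 5 for those listed as maternally expressed. Ddc is in the maternal list and among these 6 and 12 higher genes, and its listing there is uncertain. Beside these stand the shares of all genes called higher and lower, 49.8% and 15.5%, 23.1% and 31.2%, and 45.9% and 10.6% in the order of the comparisons. The difference between the parental sets was not tested.

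**Figure D5:**
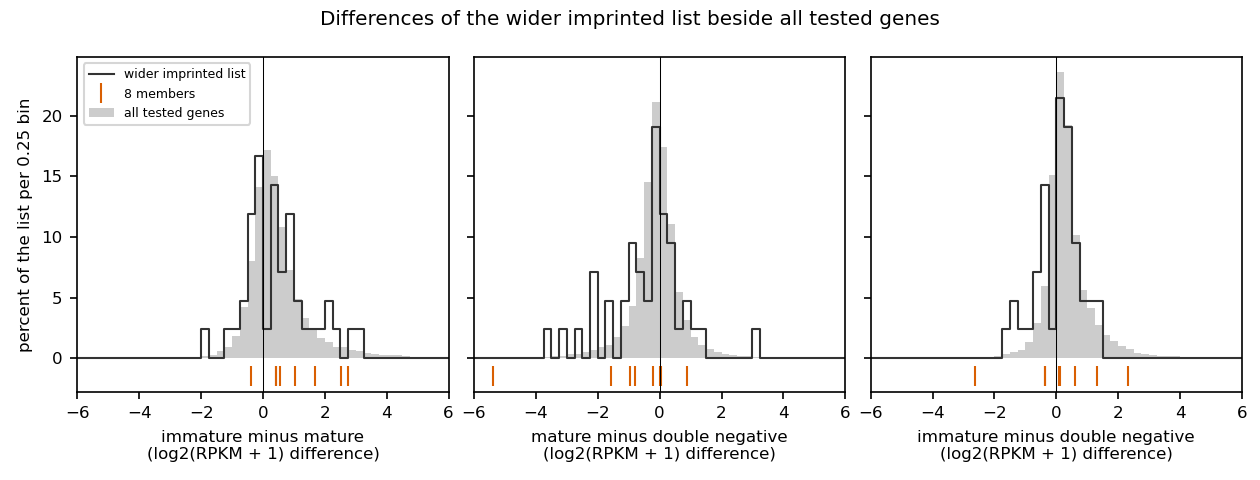
Distribution of differences in log2(RPKM + 1) for the 42 tested genes of the wider imprinted list (line) and for all 13367 tested genes (grey), as percent of each list per bin of 0.25, in the 3 comparisons. Orange ticks are the 8 members. The list spreads to both sides of 0 in each comparison, with a tail below -2 in mature minus double negative cells that includes Mest, Zim1 and Sgce.

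Some genes of the wider list with large differences had orders of levels that also occurred among the members. Mest was at 4.87 and 5.51 RPKM in immature, 0.331 and 0.425 RPKM in mature and 14.6 and 15.3 RPKM in double negative cells, the order of Peg10, and was lower in mature than in double negative cells by -3.53 on the log2 scale (SE 0.09, limma adjusted p = 6.87e-06). Cd81, a tetraspanin gene, was at 98.6 and 84.6 RPKM in immature, 16.1 and 17.5 RPKM in mature and 81.8 and 82.8 RPKM in double negative cells, the dip of Peg3 and Dlk1, with a difference of 2.37 between immature and mature cells (SE 0.08, limma adjusted p = 7.38e-06). Ampd3, an AMP deaminase gene, had 7.68 and 6.26 RPKM in immature, 0.0602 and 0.0665 RPKM in mature and 2.39 and 2.60 RPKM in double negative cells. It was highest in immature cells, by 2.90 over mature cells (limma adjusted p = 1.06e-05), and, unlike Meg3, lower in mature than in double negative cells, at -1.72 (limma adjusted p = 9.73e-05). These sorted cells also differed in the endothelial, immune and mesenchymal sums given above.

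Other genes of the wider list were highest in mature cells with no overlap, a shape that no member had. Rasgrf1, a paternally expressed exchange factor for Ras proteins, was at 8.53 and 10.4 RPKM in immature, 36.4 and 35.8 RPKM in mature and 2.71 and 3.30 RPKM in double negative cells. It was lower in immature than in mature cells, at -1.83 (SE 0.11, limma adjusted p = 5.59e-05), and higher in mature than in double negative cells by 3.21 (SE 0.11, limma adjusted p = 1.15e-05). Inpp5f, an inositol phosphatase gene, had 37.8 and 35.0 RPKM in immature, 72.3 and 67.5 RPKM in mature and 24.9 and 26.9 RPKM in double negative cells, with log2 differences of -0.92 and 1.40 (limma adjusted p = 0.000118 and 3.22e-05). Tssc4 and Igf2r differed in the same direction between immature and mature cells, at -0.57 and -0.56 (limma adjusted p = 0.00107 and 0.000274). Slc38a4, an amino acid transporter gene, was low in immature cells alone, as Plagl1 was, with 88.2 and 74.4 RPKM there, 174.1 and 169.1 RPKM in mature and 183.2 and 181.4 RPKM in double negative cells and a difference of -1.07 between immature and mature cells (SE 0.08, limma adjusted p = 0.000139).

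Factors that set, keep or erase imprints were listed as well, 19 genes of which 12 were tested. All 12 were higher in immature than in mature cells, with a median of 0.92 against 0.29 over all genes, where 49.8% of genes were called higher. With median-ratio rescaling and with quantile normalization 9 and 8 were higher. Under these settings 3930 of 13239 and 3122 of 13367 genes were called higher. Tet3 and Tet2, which oxidise methylated cytosine, were higher by 1.23 and 1.16 (SE 0.10 each, limma adjusted p = 0.000149 and 0.000235), and Arid4a, a chromatin protein, by 1.39 (SE 0.10, limma adjusted p = 8.34e-05). Tet3 had 6.78 and 6.27 RPKM in immature, 2.27 and 2.15 RPKM in mature and 2.12 and 2.52 RPKM in double negative cells, the shape of Meg3. The differences of Dnmt1, which copies methylation at replication, and Trim28, the corepressor that ZFP57 recruits, were 0.45 and 0.52 (limma adjusted p = 0.00107 and 0.000578), and both calls were lost with median-ratio rescaling (0.04 and 0.08, limma adjusted p = 0.583 and 0.251). In mature against double negative cells, where 23.1% of all genes were called higher and 31.2% lower, 0 were higher and 7 lower, and the latter count was 4 without mature replicate 2. In immature against double negative cells, where the shares were 45.9% and 10.6%, 7 were higher and 0 lower. These became 4 and 1 both with median-ratio rescaling and with quantile normalization, where 3362 of 6907 and 2864 of 7212 calls over all genes were higher. Zfp57 itself was too low to be tested, at 1.21 and 0.842 RPKM in immature, 0.0223 and 0.0394 RPKM in mature and 0.168 and 0.221 RPKM in double negative cells, from 11 reads in each immature library.

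For each fitted member the genes with the most similar profile over the 6 libraries were found by the root mean square distance of log2(RPKM + 1) profiles, each centred on its mean, among at least 8692 genes. Nearest to Peg10 was Ttr, at a distance of 0.0814, followed by Avpr1b, a vasopressin receptor gene, at 0.0876 and Edn3, an endothelin gene, at 0.165. On this scale low levels are compressed: double negative over mature means were 175.7-fold for Peg10 and 38.3-fold for Ttr, and with a pseudocount of 0.1 RPKM the difference of Peg10 went from -5.38 to -7.12. Ttr was at 1046 and 754.7 RPKM in immature, 124.9 and 139.1 RPKM in mature and 5252 and 4865 RPKM in double negative cells. The chromatin genes Asxl1, Phip and Setd2 were nearest to Peg3, at distances from 0.0384 to 0.0504. Dlk1 had Kctd12, Ifitm2 and Cdc42ep4 as nearest, from 0.0449 to 0.0634. The nearest to Meg3 were Lat2, Snhg11 and Rab8b, at larger distances of 0.194, 0.196 and 0.201. Their profiles still correlated with that of Meg3 at a Pearson r of 0.987, 0.994 and 0.986, and this distance also grows with the size of the differences. Rian had Dnajc13, Tial1 and Srpk1 at 0.0225 to 0.0256, Nnat had Cast, Adarb1 and Snx5 at up to 0.0619, and Grb10 had Grb7, which encodes an adaptor of its own family, at 0.0291 with Anp32a and Brip1os next. Cdk7, Nudt18 and Spryd7 were nearest to Plagl1, at 0.0590 to 0.0711. With 3 populations of 2 libraries, such likeness rests on few independent levels.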

How the data were processed

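Per the labels' protocols, RNA of the sorted islet cells was taken up in Trizol and sequenced from TruSeq RNA libraries. RPKM values deposited by the authors fill a single table with a column for each library, whose header gives the library's title. STAR 2.5, featureCounts, edgeR 3.14.0 and GRCm38.p4 are named per the submitters' processing notes. The sources used here do not give the annotation release, the strand setting or the handling of multimapping reads.

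Reads were recovered from RPKM steps with exonic lengths of GENCODE M21 on GRCm38, the source of all gene coordinates and identifiers. Of low values (under 200 reads) 78.1% to 83.8% were whole within 0.02 reads, as were all 6 values of 19128 among the 25803 genes above 0 (74.1%).

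Genes at 1 RPKM or more in at least 2 libraries were fitted on the log2(RPKM + 1) scale by limma 3.58.1 (R 4.3.3), with means of 3 groups, an intensity trend and Benjamini-Hochberg adjustment at 0.05 over 13367 genes. Each gene had a single variance over the 3 groups, hence an equal SE in every comparison. Replicates differed most among immature libraries (SD over genes 0.393 on the log2 scale), less among double negative (0.222) and least among mature ones (0.132). The shared SE can thus be too small where immature cells are compared and too large for mature against double negative cells. The procedure was also run on simulated data in which few genes differed and every library had the same added noise. That setting lacks the broad differences between these populations, so no support is drawn from it. The members and lists were chosen with earlier results of these data known. Named were all members, the genes of their domains, the 5 largest called differences of the wider list in each direction and 4 of the maintenance list, and the 3 nearest profiles, passing over predicted genes and pseudogenes; some of these are given only as counts. Zfp57, Rtl1 and Igf2 were named for their roles.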

Additional observations from a re-analysis of the deposited data

How the results depend on the processing

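The settings tried were pseudocounts of 0.1 and 0.5 RPKM, a filter of 5 RPKM, no filter, median-ratio rescaling, quantile normalization, no intensity trend, the compared libraries alone, the replicate block, limma's voom on recovered reads (8996 genes whole in reads) and leaving out each library. Of 124 alternative values of the members in each comparison, 88, 101 and 96 (immature against mature, mature against double negative, immature against double negative) moved by no more than the SE of the main limma fit. With quantile normalization the immature against mature difference was -0.07 for Nnat, -0.27 for Ppp1r9a, -0.19 for Pon2, 0.00 for Ins2, -0.06 for Cdkn1c, -0.16 for Cobl and -0.16 for Mirg, each with the other sign or none. There Phactr2 was at 0.03 in mature against double negative cells, and with median-ratio rescaling H13 was at -0.0049 in immature against double negative cells. The cause was not tested. In the wider list, higher calls in immature against mature cells fell from 23 to 12 with quantile normalization and 13 with voom. Lower calls there went from 11 to 17 with median-ratio rescaling, 4 with voom and 7 to 13 with a library left out. For mature against double negative cells voom gave 11 lower calls in place of 18, and for immature against double negative cells 10 higher in place of 17 and 6 lower in place of 13, with 8 and 10 higher calls under median-ratio rescaling and quantile normalization. Of the maintenance factors, counted in an analysis added after seeing the data, voom called 7 higher in place of 12 in immature against mature cells. Lower calls in mature against double negative cells were 4 to 9 in place of 7 with a library left out. In immature against double negative cells 11 were higher with no filter, and 4 higher and 1 lower with median-ratio rescaling and with quantile normalization, in place of 7 and 0. Fewer genes were tested with voom, 8996 in all. Of its 6066, 6251 and 5328 calls over all genes, 5273, 2277 and 4746 were higher, in the order of comparisons above. For immature against mature cells, 3930 of 8931 calls over all genes with median-ratio rescaling and 3122 of 8481 with quantile normalization were higher. For immature against double negative cells these were 3362 of 6907 and 2864 of 7212. With the compared libraries alone, calls over all genes rose from 7256 to 9015 in mature against double negative cells. They fell from 7563 to 6183 in immature against double negative cells and from 8728 to 8016 in immature against mature cells. Over all genes, calls in mature against double negative cells went from 7256 to 4767 without mature replicate 2 and 8982 without immature replicate 2.

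Same-numbered libraries share a sex label, but no label says that they come from a single pool, and their deviations correlated at -0.01, -0.11 and 0.14, so the block is an alternative only and whether the numbers pair the libraries is not known. With the replicate block 8407, 6803 and 7073 genes were called, against 8728, 7256 and 7563 without it, and among the named genes only the immature against mature call of Blcap changed. A pair of libraries per group, the low immature depth and the mix of cells limit all comparisons.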
